A study of Homo sapiens with 4 samples.

Results

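The genes described here encode respiratory complex I and a family of its assembly factors. They were taken by symbol from the table of read counts, as every gene whose name begins with NDUFA, NDUFAB, NDUFAF, NDUFB, NDUFC, NDUFS or NDUFV and ends in a number. The rule found 46 of the 27452 genes in the table, of which 38 encode structural subunits and 8 carry the NDUFAF name of assembly factors. All 46 passed the filter on low counts. RNA sequencing was done on human cells labelled HepG2, a line established from a liver tumour, made to carry either a STAT3 hairpin (STAT3 shRNA, 2 libraries) or a control hairpin (Ctrl shRNA, 2 libraries). A short hairpin RNA is processed in the cell into a small RNA that lowers the messenger RNA it matches. STAT3 is a transcription factor of cytokine signalling, and the series asked what its knockdown did to other genes.

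Complex I takes electrons from NADH, passes them along a chain of iron-sulfur clusters to ubiquinone and pumps protons across the inner mitochondrial membrane. Its core subunits do the catalysis, those of the matrix arm encoded in the nucleus and those of the membrane arm in mitochondrial DNA, and accessory subunits surround and stabilise them. Assembly factors help to build the complex and are not part of the finished enzyme. STAT3 has been described in mitochondria as well as in the nucleus, and the subunit NDUFA13, also known as GRIM-19, has been described as a STAT3-binding protein.

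Reads totalled 25862027 and 17694642 in the STAT3 shRNA libraries, against 19283150 and 20133064 in the Ctrl shRNA libraries. Before TMM scaling, 3 reads thus stood for 0.116 to 0.170 CPM (reads relative to library size). The CPM given below are scaled by TMM. STAT3 itself was at 34.7 and 36.1 CPM with STAT3 shRNA, against 245.03 and 244.3 CPM with Ctrl shRNA, a 6.91-fold fall (edgeR adjusted p = 3.28e-07). The label was checked against defining hepatocyte genes, of which ALB and APOA1 were at or near 0 in every library. ALB had 0 and 3 reads with STAT3 shRNA, against 0 and 0 reads with Ctrl shRNA. APOA1 had 1 and 2 reads with STAT3 shRNA, against 0 and 0 reads with Ctrl shRNA. The hepatocyte transcription factor HNF4A had 192 and 91 reads with STAT3 shRNA, against 24 and 34 reads with Ctrl shRNA. Other hepatocyte markers were not analysed here, so the cells are called only by their label. Of 8 markers of fibroblasts, endothelial cells and leukocytes in the tables, 6 had at most 33 reads in any library. COL1A1 had 400 and 263 reads with STAT3 shRNA, against 718 and 826 reads with Ctrl shRNA, and DCN had 388 and 282 reads with STAT3 shRNA, against 197 and 216 reads with Ctrl shRNA. Their part in the results below was not tested. Whether both libraries of a group are separate cultures is not in the labels, so the p-values cover only how far these samples differ, possibly for technical reasons. What a hairpin does beyond lowering STAT3 cannot be told apart from the knockdown, and in bulk RNA fewer cells of a type cannot be told apart from less RNA per cell.

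The promoters of 3 members show what the start regions of these genes look like. NDUFA1 is the subunit with the largest fall, NDUFAF8 the assembly factor with the largest fall, and NDUFB11 a subunit of similar level in both groups, all chosen after their values were seen. Each window runs from 250 bases before to 50 bases after a RefSeq start, in build GRCh38.p14, 5′ to 3′ on the strand of the gene. Capitals mark matches to CCGGAAG, a motif of ETS factors such as GABPA, and to AAGATGGCG, a motif of YY1, on either strand. They lie at chrX:119871582-119871881 on the plus strand (NDUFA1), chr17:81239061-81239360 on the plus strand (NDUFAF8) and chrX:47144653-47144952 on the minus strand (NDUFB11).
NDUFA1: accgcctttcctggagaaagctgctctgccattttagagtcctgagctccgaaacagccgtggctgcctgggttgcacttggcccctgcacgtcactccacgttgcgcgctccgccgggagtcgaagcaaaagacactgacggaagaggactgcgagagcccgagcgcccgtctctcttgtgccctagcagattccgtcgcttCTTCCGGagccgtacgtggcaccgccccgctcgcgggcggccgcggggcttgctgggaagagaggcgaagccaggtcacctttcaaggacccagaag
NDUFAF8: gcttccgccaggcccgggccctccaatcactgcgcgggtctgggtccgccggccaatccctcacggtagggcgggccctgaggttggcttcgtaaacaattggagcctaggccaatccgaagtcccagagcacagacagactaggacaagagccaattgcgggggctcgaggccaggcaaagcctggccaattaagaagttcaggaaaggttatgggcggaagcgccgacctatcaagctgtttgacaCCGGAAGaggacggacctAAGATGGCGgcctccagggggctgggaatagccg
NDUFB11: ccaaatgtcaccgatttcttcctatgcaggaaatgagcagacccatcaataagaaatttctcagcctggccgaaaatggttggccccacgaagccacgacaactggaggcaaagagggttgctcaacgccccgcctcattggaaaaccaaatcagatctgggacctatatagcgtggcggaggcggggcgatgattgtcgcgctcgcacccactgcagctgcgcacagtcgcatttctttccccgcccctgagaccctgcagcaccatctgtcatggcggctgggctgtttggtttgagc
NDUFA1 holds 1 ETS match, which begins at base 204 of its window. NDUFAF8 has 3 RefSeq windows; the one shown, chosen for its matches, holds an ETS match at base 249 and a YY1 match at base 267, and the one at chr17:81239664-81239963 holds none. NDUFB11 holds no match to any of the motifs searched.

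RefSeq windows were found for 39 of the 46 members, and a gene counts as having a motif where at least 1 of its windows holds it. The ETS motif was in 7 of them (17.9%), against 12.2% of 27305 genes with a window, and the members with it were NDUFA1, NDUFA13, NDUFAF4, NDUFAF8, NDUFB7, NDUFS1 and NDUFS3. The NRF1 motif GCGCATGCG was in 6 members (15.4%), against 2.34% of all genes, namely NDUFA5, NDUFA8, NDUFAF5, NDUFB4, NDUFS6 and NDUFS7. The YY1 motif was in 7 members (17.9%), against 2.14% of all genes, namely NDUFA6, NDUFA7, NDUFA9, NDUFAF8, NDUFB8, NDUFS4 and NDUFS7. NRF1, GABPA and YY1 are known regulators of nuclear genes for mitochondrial proteins. The motif TTCCNGGAA, which STAT factors bind, was in 0 of the 39 members, against 1.44% of all genes. Both strands were searched, and a match or its absence in these windows describes letters and not binding.

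Structural subunits were mostly lower with STAT3 shRNA. Of the 38 subunits, 28 (73.7%) fell, 0 rose and 10 did not pass the edgeR quasi-likelihood test at an adjusted p of 0.05, where 18.7% of the 15199 tested genes fell and 16.8% rose. At an unadjusted p under 0.05, 30 subunits were lower and 0 higher, and DESeq2 called 27 lower and 0 higher. The median log2 fold change of the subunits was -0.51, within a range of -1.54 to 0.04, beside a median of 0.02 over all tested genes. In 32 subunits both STAT3 shRNA libraries lay below both Ctrl shRNA libraries, as they did in 34.3% of all tested genes, and in 0 subunits both lay above, as they did in 36.5% of all tested genes. Groups were apart in either direction in 70.8% of all tested genes. The NDUFAF assembly factors were mixed, with 3 of 8 lower, 1 higher and 4 that did not pass. Their median log2 fold change was -0.11, within a range of -1.18 to 0.53. Fewer calls came from limma-trend on the deposited FPKM, which called 16 subunits lower with a pseudocount of 1.

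**Figure D1:**
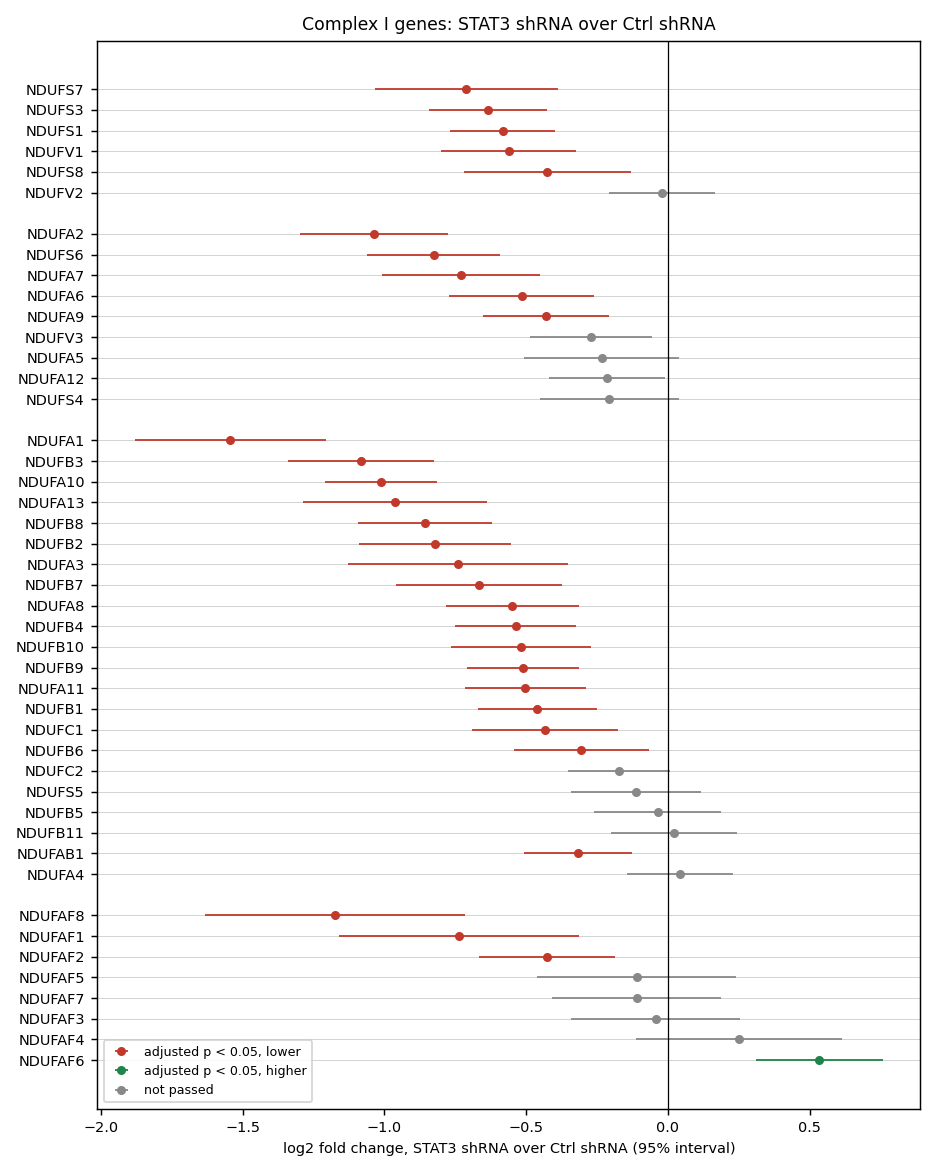
Log2 fold change of complex I genes, STAT3 shRNA over Ctrl shRNA, with the 95% interval of the edgeR fit (horizontal axis, log2). Colours mark genes that passed an adjusted p of 0.05 in either direction. Most subunits lie left of 0, with NDUFA1 at -1.54, and NDUFAF6 at 0.53 is the member that passed on the right.

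The core subunits of the matrix arm carry the flavin and the iron-sulfur clusters, and 6 of these 7 fell, with a median log2 fold change of -0.56. With a GC offset 4 of the 7 fell, and the median was -0.34. NDUFS7, which holds the last cluster before ubiquinone, had 49.7 and 55.9 CPM with STAT3 shRNA, against 72.9 and 99.8 CPM with Ctrl shRNA, a log2 fold change of -0.71 ± 0.14 (SE; edgeR adjusted p = 0.00537). NDUFS3, a subunit at the base of the matrix arm, had 52.2 and 54.0 CPM with STAT3 shRNA, against 78.2 and 86.9 CPM with Ctrl shRNA (-0.64 ± 0.09, edgeR adjusted p = 0.00110). Both genes were lower in either STAT3 shRNA library than in either Ctrl shRNA library. NDUFS1, the largest iron-sulfur subunit, had 128 and 133 CPM with STAT3 shRNA, against 201 and 190 CPM with Ctrl shRNA (-0.58 ± 0.08, edgeR adjusted p = 0.000931). NDUFV1, which binds NADH and the flavin, had 131 and 125 CPM with STAT3 shRNA, against 170 and 207 CPM with Ctrl shRNA (-0.56 ± 0.10, edgeR adjusted p = 0.00387). The groups did not overlap in these genes either. NDUFS8, an iron-sulfur subunit next to NDUFS7, had 124 and 125 CPM with STAT3 shRNA, against 141 and 192 CPM with Ctrl shRNA (-0.43 ± 0.13, edgeR adjusted p = 0.0330). The call of NDUFS8 was lost in 7 of 15 alternative settings. NDUFV2, the iron-sulfur partner of NDUFV1, overlapped between groups, at 93.6 and 96.1 CPM with STAT3 shRNA and 93.9 and 98.5 CPM with Ctrl shRNA. Its log2 fold change was -0.02 ± 0.08 (95% interval -0.21 to 0.17, edgeR adjusted p = 0.865).

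Accessory subunits of the membrane arm fell in 16 of 20 cases, with a median of -0.53, and those of the matrix arm in 5 of 9, with a median of -0.43. With a GC offset 18 of 20 fell and 1 rose in the membrane arm (median -0.54), and 9 of 9 fell in the matrix arm (median -0.56). NDUFAB1 and NDUFA4 were counted in neither arm. The largest fall was that of NDUFA1, a small membrane-bound subunit needed for assembly (ENSG00000125356.7; chromosome X, 119871487 to 119876662 in GRCh38). It had 26.5 and 30.3 CPM with STAT3 shRNA, against 69.9 and 95.2 CPM with Ctrl shRNA, with means of 28.4 ± 2.68 CPM for STAT3 shRNA and 82.5 ± 17.8 CPM for Ctrl shRNA (SD, n = 2 each). Both STAT3 shRNA libraries lay below the lower Ctrl shRNA library, and the 2.92-fold fall had a log2 fold change of -1.54 ± 0.15 (95% interval -1.88 to -1.21, edgeR adjusted p = 0.000155). NDUFB3, a membrane-arm subunit, had 17.9 and 21.0 CPM with STAT3 shRNA, against 42.2 and 40.0 CPM with Ctrl shRNA (-1.08 ± 0.11, edgeR adjusted p = 0.000241). NDUFA2, a matrix-arm subunit with a thioredoxin-like fold, had 31.1 and 30.2 CPM with STAT3 shRNA, against 56.5 and 69.1 CPM with Ctrl shRNA (-1.04 ± 0.11, edgeR adjusted p = 0.000314). NDUFA10, a membrane-arm subunit related to nucleoside kinases, had 65.3 and 61.5 CPM with STAT3 shRNA, against 123 and 132 CPM with Ctrl shRNA (-1.01 ± 0.09, edgeR adjusted p = 9.01e-05). In each of these genes the groups did not overlap. NDUFA13, the STAT3-binding subunit, had 104 and 101 CPM with STAT3 shRNA, against 166 and 234 CPM with Ctrl shRNA (-0.96 ± 0.14, edgeR adjusted p = 0.00130). The Ctrl shRNA libraries stood further apart there than in NDUFA10.

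NDUFB8, a subunit often stained on blots as a sign of assembled complex I, had 73.5 and 72.7 CPM with STAT3 shRNA, against 120 and 145 CPM with Ctrl shRNA (-0.86 ± 0.10, edgeR adjusted p = 0.000484). NDUFS6, a zinc-binding subunit of the matrix arm, had 157 and 146 CPM with STAT3 shRNA, against 245 and 293 CPM with Ctrl shRNA (-0.83 ± 0.10, edgeR adjusted p = 0.000551). NDUFB2, in the membrane arm, had 66.0 and 82.7 CPM with STAT3 shRNA, against 124 and 139 CPM with Ctrl shRNA (-0.82 ± 0.12, edgeR adjusted p = 0.00107). The groups did not overlap in any of the 8 accessory subunits given so far, and their calls held in all 15 alternative settings. A further 14 accessory subunits fell by 0.31 to 0.74 on the log2 scale, from NDUFB6 at the small end to NDUFA3 at the large end. Among them were NDUFAB1, the mitochondrial acyl carrier protein, at -0.32 and NDUFA9, which binds NADPH, at -0.43. NDUFB6 was the least certain of these calls (edgeR adjusted p = 0.0497) and was lost in 8 of 15 settings.

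The remaining subunits did not pass. NDUFV3 had a log2 fold change of -0.27 (edgeR adjusted p = 0.0540), NDUFA12 -0.22 (0.0931), NDUFC2 -0.17 (0.123) and NDUFS5 -0.11 (0.423). NDUFS4, a subunit of the matrix arm that is often mutated in Leigh syndrome, had 27.5 and 27.9 CPM with STAT3 shRNA, against 29.7 and 34.1 CPM with Ctrl shRNA (-0.21, edgeR adjusted p = 0.169). NDUFA5 had a log2 fold change of -0.23 (0.165) and NDUFB5 one of -0.04 (0.797). NDUFB11, a membrane-arm subunit, overlapped between groups at 264 and 248 CPM with STAT3 shRNA and 232 and 273 CPM with Ctrl shRNA (0.02, edgeR adjusted p = 0.889). NDUFA4, which keeps its complex I name but is now counted with cytochrome c oxidase, overlapped as well, at 162 and 174 CPM with STAT3 shRNA and 161 and 165 CPM with Ctrl shRNA (0.04, edgeR adjusted p = 0.715). Without NDUFA4, 28 of 37 subunits fell and the median was -0.52.

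**Figure D2:**
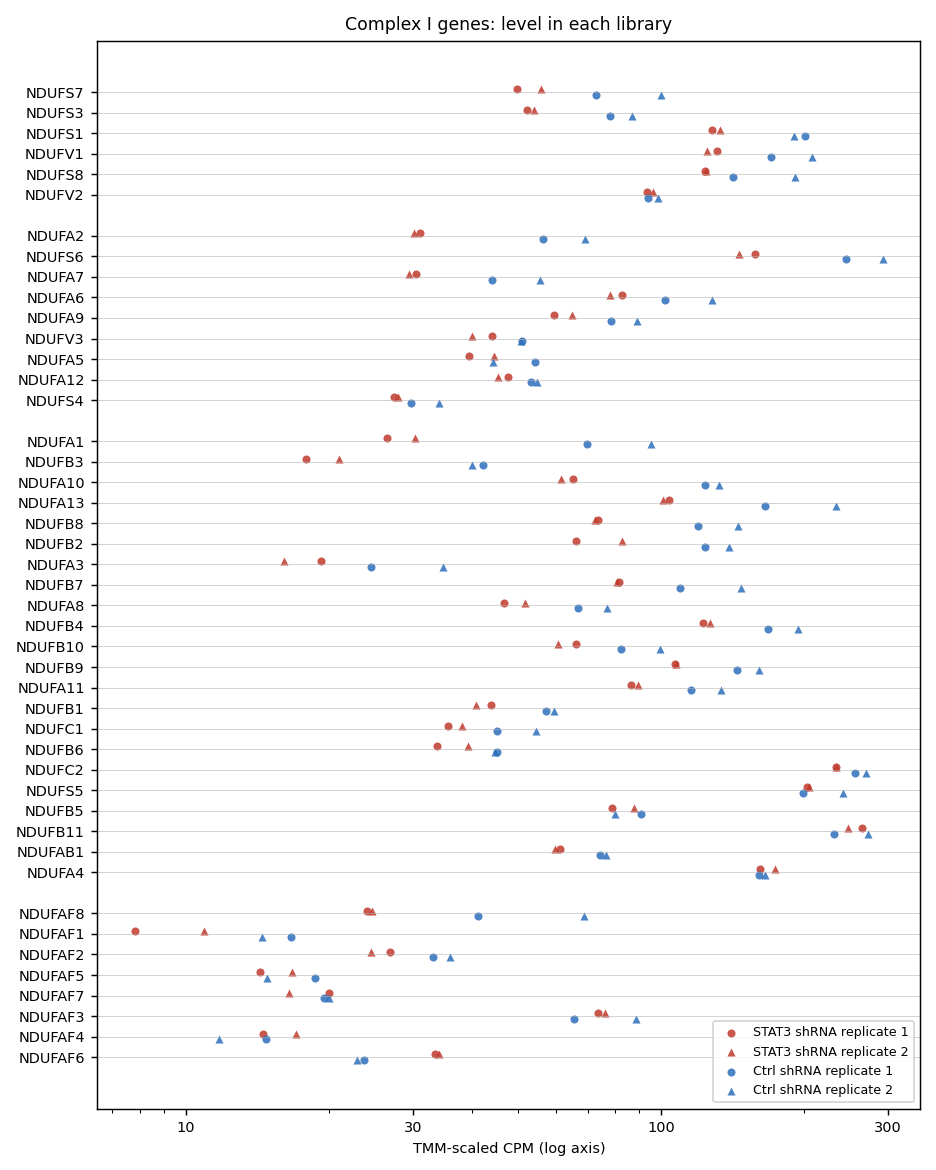
TMM-scaled CPM of complex I genes (log axis) in the 2 STAT3 shRNA libraries and the 2 Ctrl shRNA libraries, 1 point per library. In NDUFA1 both STAT3 shRNA libraries (26.5 and 30.3 CPM) lie well below the Ctrl shRNA libraries (69.9 and 95.2 CPM), while the points of NDUFV2 lie together between 93.6 and 98.5 CPM.

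Among the assembly factors, the largest fall was that of NDUFAF8, which stabilises NDUFAF5 (chromosome 17, 81239239 to 81241281). It had 24.0 and 24.6 CPM with STAT3 shRNA, against 41.2 and 68.6 CPM with Ctrl shRNA, with means of 24.3 ± 0.405 CPM for STAT3 shRNA and 54.9 ± 19.4 CPM for Ctrl shRNA (SD over 2 libraries). The Ctrl shRNA libraries stood far apart but above both STAT3 shRNA libraries, and the 2.26-fold fall had a log2 fold change of -1.18 ± 0.20 (edgeR adjusted p = 0.00263). NDUFAF5 itself, which hydroxylates an arginine of NDUFS7, overlapped between groups at 14.3 and 16.7 CPM with STAT3 shRNA and 18.7 and 14.8 CPM with Ctrl shRNA (-0.11, edgeR adjusted p = 0.614). NDUFAF1, which works in the early assembly of the membrane arm, had 7.80 and 10.9 CPM with STAT3 shRNA, against 16.6 and 14.4 CPM with Ctrl shRNA (-0.74 ± 0.19, edgeR adjusted p = 0.0150). NDUFAF2, a paralogue of NDUFA12 that acts late in assembly, had 26.8 and 24.5 CPM with STAT3 shRNA, against 33.1 and 36.0 CPM with Ctrl shRNA (-0.43 ± 0.11, edgeR adjusted p = 0.0138). Neither gene overlapped between groups. The call of NDUFAF1 was lost with limma-trend on FPKM and without STAT3 shRNA replicate 1 (edgeR adjusted p = 0.135), and that of NDUFAF2 without either STAT3 shRNA library (edgeR adjusted p = 0.0721 without replicate 1 and 0.185 without replicate 2).

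NDUFAF6, needed for the membrane arm around ND1, was the member that rose. It had 33.4 and 34.1 CPM with STAT3 shRNA, against 23.6 and 23.0 CPM with Ctrl shRNA, with means of 33.8 ± 0.460 CPM for STAT3 shRNA and 23.3 ± 0.493 CPM for Ctrl shRNA (SD over 2 libraries). Its log2 fold change was 0.53 ± 0.10 (95% interval 0.31 to 0.76, edgeR adjusted p = 0.00376), and the call was lost without STAT3 shRNA replicate 2 (edgeR adjusted p = 0.0512). CCNE2, on the opposite strand of the NDUFAF6 locus, held 75.0% as many reads, and strand use is not stated. NDUFAF4 and NDUFAF3 work as a pair, and neither passed. NDUFAF4 had 14.5 and 17.0 CPM with STAT3 shRNA and 14.7 and 11.7 CPM with Ctrl shRNA (0.25 ± 0.16, edgeR adjusted p = 0.256). NDUFAF3 had 73.7 and 76.1 CPM with STAT3 shRNA and 65.6 and 88.6 CPM with Ctrl shRNA (-0.04, edgeR adjusted p = 0.826), and its log2 fold change was 0.29 with a GC offset (edgeR adjusted p = 0.0355). NDUFAF7, a methyltransferase of the mitochondrial matrix, had 20.03 and 16.5 CPM with STAT3 shRNA and 19.5 and 20.02 CPM with Ctrl shRNA (-0.11, edgeR adjusted p = 0.551).

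Subunits and assembly factors were compared by their summed level in each library, as a description without a test. Subunits summed to 3225 and 3252 CPM with STAT3 shRNA, against 4134 and 4750 CPM with Ctrl shRNA. Assembly factors summed to 214.7 and 220.4 CPM with STAT3 shRNA, against 233.05 and 277.2 CPM with Ctrl shRNA. The ratio of the sums was 15.0 and 14.8 with STAT3 shRNA, against 17.7 and 17.1 with Ctrl shRNA. Its direction turned without the 14 members whose locus is shared with a gene that holds at least 20% as many reads, where the ratio was 28.3 and 26.6 with STAT3 shRNA, against 24.9 and 24.5 with Ctrl shRNA. The median log2 fold change of the subunits lay 0.40 below that of the assembly factors (difference -0.40). That difference was -0.0035 without the same 14 members, and -0.18 with a GC offset. Among the members without such a neighbour, 18 of 27 subunits fell (median -0.43), as did 3 of 5 assembly factors (median -0.43). The members taken out included NDUFA1, overlapped by RNF113A at 32.6% of its reads, and NDUFA2, overlapped by IK at 249.6%. RNF113A had a log2 fold change of 0.11 (edgeR adjusted p = 0.527). The others were NDUFA3, NDUFA7, NDUFAF3, NDUFAF6, NDUFAF7, NDUFB2, NDUFB3, NDUFB8, NDUFB11, NDUFC1, NDUFS1 and NDUFS3. Overlap was taken over whole gene spans, introns included, and whether exons or reads are shared was not checked. Values of all 14 may be uncertain where counting ignored strand. Those of NDUFS3 and NDUFB2 may be uncertain even with counting by strand, as PTPMT1 and ADCK2 overlap them on the same strand. For NDUFS1 the partner was EEF1B2 at 215.5% of its reads, for NDUFB3 FAM126B at 46.8% and for NDUFAF7 CEBPZ at 399.4%. Some partners at 20% or more changed too, and EEF1B2 had a log2 fold change of -0.91 (edgeR adjusted p = 0.000289). Falls were also called for PTPMT1 (at NDUFS3, -0.54), RPS28 (at NDUFA7, -0.52) and ADCK2 (at NDUFB2, -0.42). BRAF (at NDUFB2, 0.56) and CEBPZ (0.39) rose, and the other such partners did not pass. Near-identical copies held 0.758% as many reads as NDUFV2 and 0.720% as many as NDUFB8, and BRAF, which shares transcript sequence with NDUFB2, held 22.3% as many. Transcript values were those of the longest annotated transcript of each gene, which need not be the one expressed. Its median GC content was 48.3% in subunits and 45.5% in assembly factors, beside 48.7% in all tested genes. Its median length was 1349.5 bases in subunits and 2205.5 in assembly factors, beside 3408 in all tested genes. Over tested genes with known GC content, the log2 fold change had a Spearman rho of -0.34 with GC content. The difference of Ctrl shRNA replicate 2 minus 1 had a rho of 0.47 with it. The part of transcript length in the results was not tested.

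**Figure D3:**
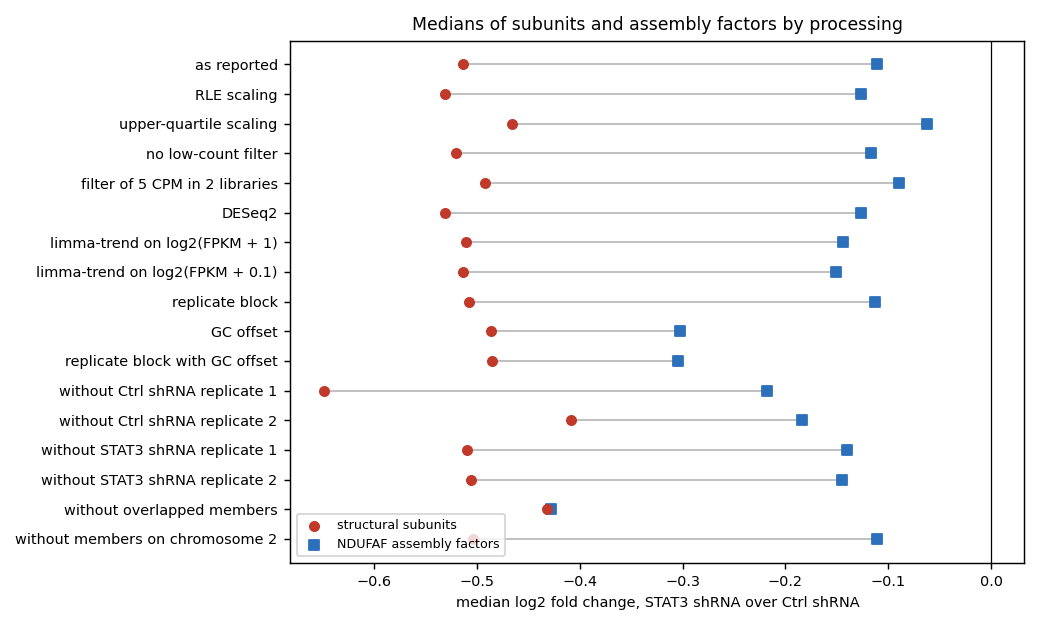
Median log2 fold change of the 38 structural subunits (circles) and the NDUFAF assembly factors (squares), STAT3 shRNA over Ctrl shRNA, under each processing setting. Subunits lie left of assembly factors as reported (-0.51 and -0.11). Without overlapped members, 27 subunits and only 5 assembly factors remain, and both medians stand at -0.43.

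The libraries of a group were compared as well. Ctrl shRNA replicate 2 was above replicate 1 in 32 of 38 subunits, with a median log2 ratio of 0.20, and in 4 of 8 assembly factors. STAT3 shRNA replicate 2 was above replicate 1 in 21 of 38 subunits, with a median of 0.01, and in 6 of 8 assembly factors. Over all tested genes this ratio had a median of -0.0021 with STAT3 shRNA and -0.0023 with Ctrl shRNA. The subunits therefore varied together between the Ctrl shRNA libraries. The median log2 fold change of the subunits was -0.65 without Ctrl shRNA replicate 1 and -0.41 without Ctrl shRNA replicate 2.

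For some members the neighbouring genes were lower too, among them NDUFB3, NDUFS1 and NDUFA10 on the long arm of chromosome 2. The share over all tested genes was 18.7% lower and 16.8% higher. NDUFA10 (239892450 to 240025402) had 48 tested neighbours, of which 38 fell, with a median log2 fold change of -0.85. NDUFB3 (201071433 to 201085750) had 26 of 50 neighbours lower, with a median of -0.42, and NDUFS1 (206114817 to 206159603) had 25 of 50 lower, with a median of -0.32. On other chromosomes, 24 of 50 neighbours of NDUFB10 fell (median -0.30), as did 22 of 50 around NDUFS7 (median -0.31) and 21 of 50 around NDUFAF8 (median -0.25). Around NDUFA1, 8 of 50 neighbours fell and 11 rose, with a median of 0.07. NDUFAF7, on the short arm of chromosome 2, had 5 lower and 13 higher neighbours. The part of these neighbourhoods in the results was not tested. Without the members on chromosome 2, 25 of 35 subunits fell and the median was -0.50.

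Levels can be compared between genes only per length, for which the deposited FPKM were used. FPKM are meant to divide reads by transcript length and library size, but how these were computed is not given. For NDUFS5, reads and FPKM together imply 292 and 277 bases with STAT3 shRNA, against 271 and 230 bases with Ctrl shRNA. Its longest annotated transcript has 548 bases, so the order of genes by FPKM is uncertain. Subunits had a median of 115.6 and 119.4 FPKM with STAT3 shRNA, against 158.3 and 191.6 FPKM with Ctrl shRNA. Assembly factors had a median of 29.2 and 29.7 FPKM with STAT3 shRNA, against 25.5 and 22.1 FPKM with Ctrl shRNA. By median FPKM, subunits were higher in every library. The median over all tested genes was 10.2 and 10.3 FPKM with STAT3 shRNA, against 9.60 and 9.65 FPKM with Ctrl shRNA. NDUFS5 was the highest member by FPKM, with a mean of 741 FPKM with STAT3 shRNA and 858 FPKM with Ctrl shRNA. Near the low end, NDUFAF7 had a mean of 11.6 FPKM with STAT3 shRNA and 12.2 FPKM with Ctrl shRNA. NDUFAF1 had a mean of 9.54 FPKM with STAT3 shRNA and 14.8 FPKM with Ctrl shRNA.

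Counts and FPKM gave log2 ratios more than 0.3 apart in NDUFB1, NDUFA10 and NDUFAF3. NDUFB1 stood at -0.998 in FPKM and -0.46 in counts. The transcript length that its reads and FPKM together imply was 115 and 99.8 bases with STAT3 shRNA, against 93.0 and 54.8 bases with Ctrl shRNA. NDUFA10 stood at -1.33 in FPKM and -1.01 in counts, with implied lengths of 988 and 1024 bases with STAT3 shRNA, against 820 and 693 bases with Ctrl shRNA. NDUFAF3 stood at 0.32 in FPKM and -0.04 in counts. The deposited FPKM thus do not follow from these counts with a fixed length per gene, and why was not tested. The fold changes given above come from counts.

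**Figure D4:**
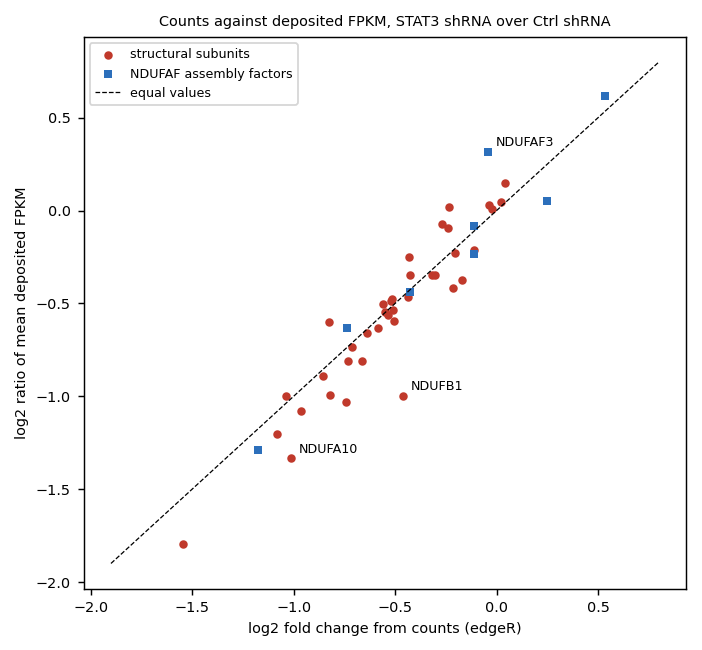
Log2 ratio of mean deposited FPKM (vertical axis) against the log2 fold change from counts (horizontal axis), STAT3 shRNA over Ctrl shRNA, for each complex I gene, with a dashed line of equal values. Most genes lie near the line, and NDUFB1 lies below it at -0.998 in FPKM and -0.46 in counts.

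Other genes of the pathway were read from lists of known members. The 7 complex I subunits encoded in mitochondrial DNA form the core of the membrane arm, of which 2 rose and 1 fell; their median log2 fold change was 0.11. With a GC offset 2 fell and both rises were lost. MT-ND2 had 2162 and 2018 CPM with STAT3 shRNA, against 1737 and 1589 CPM with Ctrl shRNA (0.33 ± 0.08, edgeR adjusted p = 0.0138). MT-ND4 had 4690 and 4372 CPM with STAT3 shRNA, against 3930 and 3745 CPM with Ctrl shRNA (0.24, edgeR adjusted p = 0.0352). MT-ND3 had 579 and 553 CPM with STAT3 shRNA, against 641 and 725 CPM with Ctrl shRNA (-0.27, edgeR adjusted p = 0.0396). These 3 calls were lost with FPKM, and also without STAT3 shRNA replicate 1 or without replicate 2. Of 12 assembly factors without the NDUFAF name, 2 (16.7%) fell and 0 rose in the edgeR test. The share that fell was near that of all tested genes, of which 18.7% fell and 16.8% rose. All 12 had a log2 fold change below 0, with a median of -0.16, where 48.2% of all tested genes lay below 0. Calls lower and higher were 5 and 0 at an unadjusted p under 0.05. They were 2 and 0 with DESeq2, and 4 and 0 with a GC offset. The 2 falls without the offset were those of DMAC1 at -0.58 (edgeR adjusted p = 0.00781) and the oxidoreductase FOXRED1 at -0.48 (edgeR adjusted p = 0.00652). Both calls were lost with FPKM.

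Nuclear genes of the other respiratory complexes were lower in a similar share. Of 40 tested genes of complexes II to V, 31 fell and 0 rose in the edgeR test (34 and 0 at an unadjusted p under 0.05, 32 and 0 with DESeq2), with a median of -0.47. On the deposited FPKM, limma-trend called 11 lower and 1 higher. Complex III had 8 of 9 lower, complex V 12 of 15, complex IV 7 of 10 and complex II 4 of 6. The complex II list included its assembly factors SDHAF1 (-0.69) and SDHAF2 (-0.47), which both fell. Of its subunits, SDHA and SDHB fell, and SDHC and SDHD did not pass. SDHB, the iron-sulfur subunit of complex II, had 59.4 and 65.5 CPM with STAT3 shRNA, against 101 and 108 CPM with Ctrl shRNA (-0.75 ± 0.09, edgeR adjusted p = 0.000494). ATP5MC3, which encodes a ring subunit of ATP synthase, had 98.1 and 103 CPM with STAT3 shRNA, against 244 and 274 CPM with Ctrl shRNA (-1.36 ± 0.09, edgeR adjusted p = 2.59e-05). CYC1, the cytochrome c1 of complex III, had 193 and 189 CPM with STAT3 shRNA, against 295 and 341 CPM with Ctrl shRNA (-0.74 ± 0.09, edgeR adjusted p = 0.000550). All 3 genes kept their calls in the 14 alternatives run on them, and their groups did not overlap. COX5B, a subunit of complex IV, had 69.1 and 62.9 CPM with STAT3 shRNA, against 107 and 157 CPM with Ctrl shRNA (edgeR adjusted p = 0.00178). Whether complex I subunits differed from these genes was not tested.

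**Figure D5:**
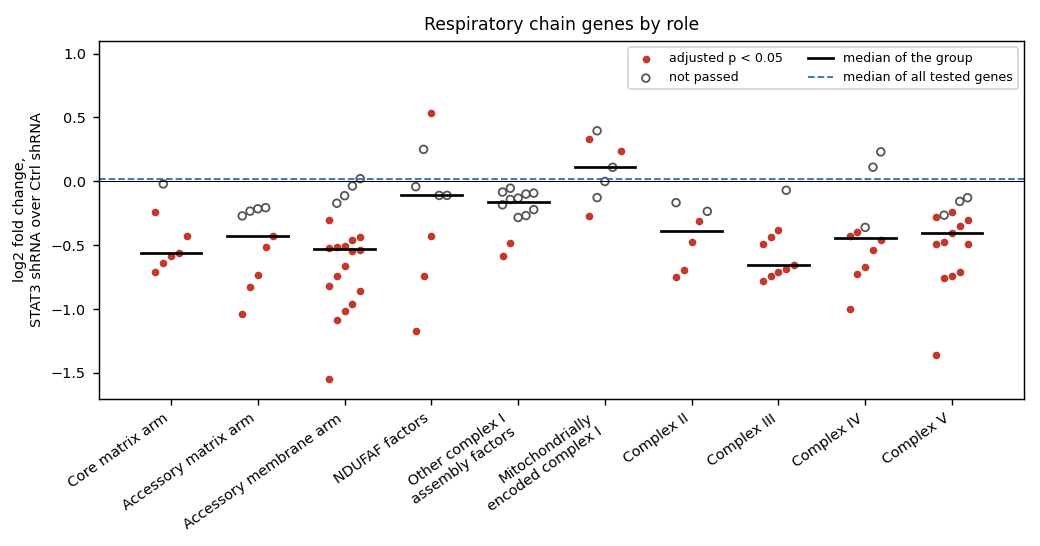
Log2 fold change of each tested gene, STAT3 shRNA over Ctrl shRNA, by role: complex I subunits, assembly factors, mitochondrially encoded subunits and complexes II to V, with filled points for an adjusted p under 0.05, a bar at each median and a dashed line at the median of all tested genes. Nuclear subunits lie mostly below 0, and the 7 mitochondrially encoded subunits lie around 0 with a median of 0.11. Complex II includes its assembly factors SDHAF1 and SDHAF2.

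A list of 13 mitochondrial regulators also held matrix proteases and factors of mitochondrial DNA, such as LONP1 and TFAM. Of these 13 genes, 4 (30.8%) fell, 3 (23.1%) rose and 6 did not pass. Of all tested genes, 18.7% fell and 16.8% rose. ESRRA, a nuclear receptor that activates respiratory chain genes, had 47.5 and 48.5 CPM with STAT3 shRNA, against 86.8 and 115 CPM with Ctrl shRNA (-1.07 ± 0.13, edgeR adjusted p = 0.000460). LONP1, a protease of the mitochondrial matrix, had 188 and 185 CPM with STAT3 shRNA, against 279 and 308 CPM with Ctrl shRNA (-0.66 ± 0.08, edgeR adjusted p = 0.000641). PPARGC1A, a coactivator of ESRRA and NRF1, had 18.6 and 17.1 CPM with STAT3 shRNA, against 9.23 and 7.63 CPM with Ctrl shRNA (1.09 ± 0.15, edgeR adjusted p = 0.000988), a rise that was not called with FPKM. The groups did not overlap in these 3 genes. The other rises, named after their values were seen, were those of TFAM, which packages mitochondrial DNA, at 0.40 (edgeR adjusted p = 0.0177) and GABPA at 0.29 (edgeR adjusted p = 0.0456). Of 14 alternatives, the call of TFAM held in 8 and that of GABPA in 4, and both were lost with FPKM, with a GC offset and without either STAT3 shRNA library.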

How the data were processed

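For 4 RNA-seq libraries the authors deposited a table of raw counts and a table of FPKM, both by gene, per the file headers. How reads were aligned and counted, on which build, and whether by strand, is not given in the sources used here. Sample titles gave the groups. The STAT3 shRNA columns are named "Si" in the tables, which was inferred to mean that group.

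The test was that of edgeR 4.0.16 under R 4.3.3, run on the counts (TMM factors 1.03 and 1.04 for STAT3 shRNA, 0.979 and 0.951 for Ctrl shRNA; filterByExpr; quasi-likelihood test, two-sided), with Benjamini-Hochberg adjustment over 15199 genes and a threshold of 0.05. CPM are TMM-scaled, with SDs over 2 libraries; errors of log2 fold changes are SEs. The precision set by depth is that 3 reads stand for 0.116 to 0.170 CPM before TMM scaling, which covers counting error only. Members and lists were chosen with earlier results of these data known. Values per library are given for the core matrix-arm subunits, all NDUFAF genes and the 8 other called subunits with the largest changes, and from each pathway list genes came from the 3 smallest p-values; NDUFS4, NDUFB11 and NDUFA4 were added after their values were seen. Values of 1 member are not reported here, although it is in the counts and medians. The edgeR step was tested on simulated data.

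Positions, GC content and overlaps are from GENCODE 29 (GRCh38), where 46 of 46 members were found, 9 with the same version. GC content and length are those of the longest transcript of a gene, and overlaps are of whole gene spans. Near-identical copies were sought with blastn 2.17.0. Alternatives were other scalings and filters, DESeq2 1.42.0, limma-trend 3.58.1 on log2(FPKM + 1) and log2(FPKM + 0.1), GC offsets, a replicate block, leaving out each library and a threshold of 0.01. Leaving out overlapped members and members on chromosome 2 was added after the data were seen.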

Additional observations from a re-analysis of the deposited data

How the results depend on the processing

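Direction held for the subunits: their median stayed negative in every alternative run. The count of subunits that fell was 16 and 15 with limma-trend on FPKM (pseudocounts 1 and 0.1), and 1 subunit, NDUFB11, rose with a GC offset (0.25), alone or with the replicate block. With the GC offset the assembly factors had 2 rises, a median of -0.30 and a difference of medians of -0.18, and with the replicate block and GC offset together 2 rises, -0.30 and -0.18. At an adjusted p of 0.01, 1 assembly factor fell. Without overlapped members, chosen after seeing the data, 18 subunits fell (median -0.43), 0 assembly factors rose (median -0.43) and the difference was -0.0035. The causes were not tested.

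With 1 library left out, subunits that fell ran from 19 to 33 and their median from -0.65 to -0.41. Assembly factors that fell ran from 1 to 4 and those that rose from 0 to 1, with a median of -0.22 to -0.14, and the difference ran from -0.43 to -0.22. The lone library of a group is then assumed to vary like the other group.

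Replicate numbers share only a number: deviations of same-numbered libraries correlated at -0.0286. With the replicate block 27 subunits fell and the median was -0.51.

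Members with log2 fold changes near 0 changed sign. NDUFAF3 stood at 0.0056 with upper-quartile scaling, 0.31 and 0.32 with limma-trend, 0.29 with the GC offset and 0.30 with the block and GC offset. NDUFB5 stood at 0.012 with upper-quartile scaling and at 0.031 and 0.032 with limma-trend. NDUFV2 stood at 0.027 with upper-quartile scaling, 0.00076 with the 5 CPM filter and 0.0090 and 0.0090 with limma-trend. NDUFA5 stood at 0.039 and 0.041 with limma-trend, and NDUFA4 at -0.16 and -0.16 with the GC offset, without and with the block. With 1 library left out, values ran from -0.28 to 0.19 for NDUFAF3, -0.28 to 0.032 for NDUFAF5, -0.26 to 0.019 for NDUFAF7, -0.13 to 0.14 for NDUFB11, -0.13 to 0.040 for NDUFB5, -0.28 to 0.029 for NDUFS5, -0.088 to 0.0094 for NDUFV2 and -0.011 to 0.095 for NDUFA4.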

Other observations

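NDUFA4L2, a relative of NDUFA4 that is known as a gene induced in hypoxia, lies outside the naming rule and was chosen after its values were seen. It had 9 and 9 reads with STAT3 shRNA, against 49 and 110 reads with Ctrl shRNA, a log2 fold change of -3.35 (edgeR adjusted p = 0.00123, 0.0249 at most over 13 alternatives).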
